A study of Mus musculus with 3 samples.

Results

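Fn1 encodes fibronectin 1, and its knockdown in ST2 cells was examined here by comparing 1 mRNA library from Fn1 siRNA-transfected cells with 1 library from control cells. Of 51826 rows in the expression table, 8801 genes had a name of their own and at least 5 FPKM in either library, and these were compared. FPKM is the number of fragments scaled to transcript length and to the size of the library. ST2 is a mouse bone marrow stromal line that is used as a model of osteoblast and adipocyte formation. The control cells received an empty vector and control siRNA, the knockdown cells received an empty vector and siRNA against Fn1, and another culture received the NELL2 expression construct and control siRNA. Every siRNA was used at 30 nM with lipofectamine 3000, so all 3 cultures carried a plasmid and an siRNA. The cells were stromal cells in growth medium with serum, and no differentiation treatment was given in the labels.

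Fibronectin is a secreted glycoprotein that cells assemble into fibrils of the extracellular matrix. Integrins, above all those with the β1 and αv chains, bind its RGD motif and recruit talin, vinculin and other proteins into focal adhesions, from which FAK, Rac and AKT signaling are controlled. In bone marrow stroma it is among the most abundant matrix products, and attachment to it is known to support passage through the cell cycle.

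Values below are differences of log2(FPKM + 1), knockdown minus control, and a gene was said to rise or fall when this difference reached 1, a 2-fold change on that scale. With 1 library in each group no difference had a replicate check, no test was possible, and each statement compares libraries rather than conditions. The counting error alone had a median of 0.072 on the log2 scale over the 8643 genes with an annotated length. The spread between cultures is not known from these data, and the NELL2 overexpression library is given beside the others only for its values, because it shares the control library with the comparison.

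The targeted gene was examined before any other. Control cells had 2802 FPKM of Fn1 (ENSMUSG00000026193.15, GRCm38, chr1:71585520-71653200, minus strand), NELL2-transfected cells 2489 FPKM and knockdown cells 137 FPKM. Knockdown left 4.88% of the control level, which was a log2 ratio of -4.35. The share of all FPKM taken by Fn1 went from 0.703% to 0.0345%. It was thus low in the library labelled as knockdown and high in both libraries given control siRNA.

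The libraries were similar in size and makeup. Estimated depth was 23000000 fragments in the control and 24200000 in the knockdown library, and a 2 kb transcript at 5 FPKM held about 230 and 242 fragments. Of 15 stromal markers, all but Nt5e were above 5 FPKM in both. Nt5e passed 5 FPKM only after knockdown, at 2.17, 2.47 and 10.1 FPKM in the control, NELL2 and knockdown libraries. The sum of the stromal markers was 7651, 7421 and 4622 FPKM in the same order, Fn1 itself being a member. No endothelial or epithelial marker reached 5 FPKM, with sums between 2.14 and 8.43 FPKM. Among leukocyte markers only Lyz2 did, with 11.8, 13.9 and 7.22 FPKM in the same order. Mitochondrial transcripts made up 7.01% of FPKM in the control, 6.03% with NELL2 and 5.92% after knockdown. In bulk RNA, fewer cells of a type and less RNA per cell cannot be told apart.

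A 2-fold or larger difference was found in 117 of 8801 genes (1.33%), of which 65 (0.739%) rose and 52 (0.591%) fell. Most genes stayed close to the control level. The median log2 ratio was 0.0087, the quartiles were -0.14 and 0.16, and 4540 genes (51.6%) lay above 0. Of the 117 genes, 104 were protein coding, 87 reached 10 FPKM and 13 reached 100 FPKM. Exons of 23 of them (19.7%) overlapped another gene on the same strand, against 8.98% of all genes compared, so reads of those genes could have been divided differently between neighbours in each library. Just past the limit stood Xiap, at 4.54 and 10.1 FPKM in the control and knockdown libraries, and Col2a1, at 300 and 602 FPKM, and just under it Vps26a at -0.99 and Aldh1a1 at 0.99.

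**Figure D1:**
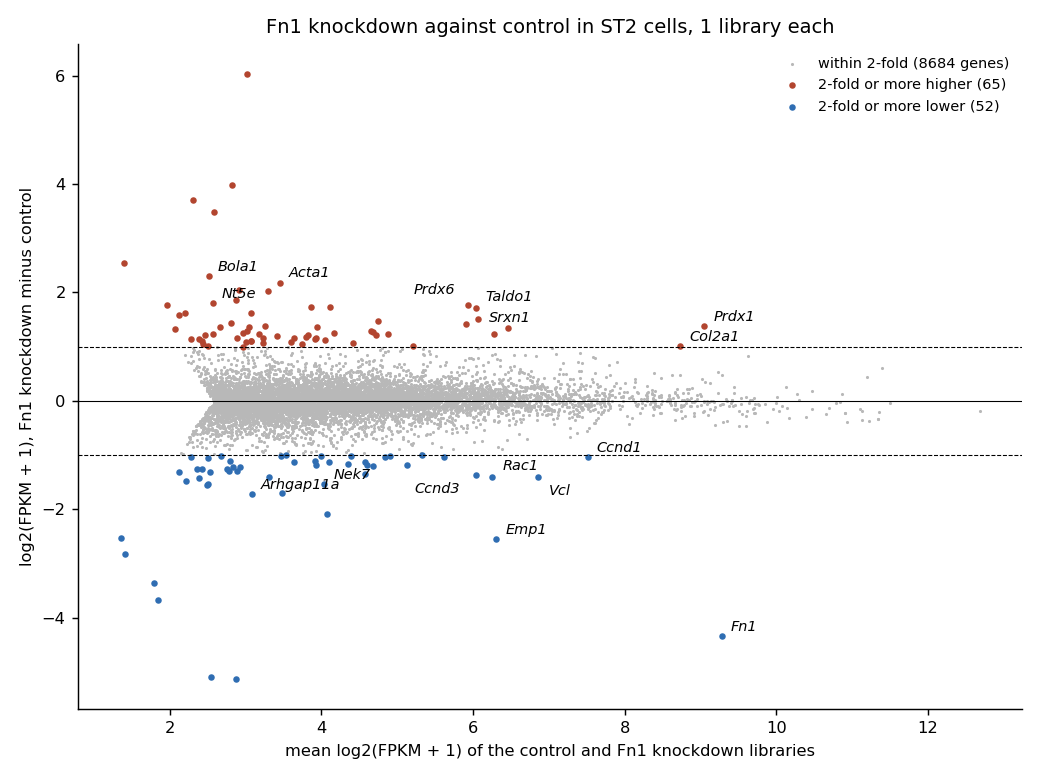
Each point is one of the 8801 genes, with its mean log2(FPKM + 1) over the control and Fn1 knockdown libraries on the x axis and its difference, knockdown minus control, on the y axis; dashed lines mark 2-fold. Fn1 at -4.35 stands alone among abundant genes, Emp1, Vcl, Rac1 and Ccnd1 lead the other abundant falls, and Prdx1 and Col2a1 are the most abundant rises.

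Genes whose exons overlap no other gene on the same strand are described first. Exons of 32.5% of the 117 genes overlapped a gene on the opposite strand, against 30.8% of all genes compared, and where strand was not used in counting the reads of both cannot be told apart. Among the genes without an overlap on the same strand Fn1 fell most and Emp1 next. Emp1, a tetraspan membrane protein (chr6:135362545-135383173, plus strand), fell from 191 to 31.8 FPKM, a log2 ratio of -2.55, and was at 59.5 FPKM with NELL2. Its relative Pmp22 fell from 36.9 to 13.9 FPKM and was at 39.3 FPKM with NELL2. The other 2 members of this small family that were compared, Emp2 and Emp3, had log2 ratios of 0.33 and -0.24. Sirpa, the receptor for CD47, was at 15.1, 10.3 and 5.06 FPKM in the control, NELL2 and knockdown libraries.

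The next largest falls without an overlap on the same strand included Arhgap11a, Nek7, Fignl1 and S100b. Arhgap11a, a GTPase-activating protein that acts in cytokinesis, had 14.4, 7.45 and 3.67 FPKM in the control, NELL2 and knockdown libraries. Nek7, a kinase of the mitotic spindle and of the NLRP3 inflammasome, was at 27.1, 28.1 and 8.65 FPKM in the same order. For Nek7 the control and NELL2 libraries were close together and the knockdown library stood apart, whereas for Arhgap11a the NELL2 value lay between them. Fignl1, an ATPase of homologous recombination, had 6.72, 7.02 and 1.78 FPKM. S100b, a calcium-binding protein, had 8.69, 7.61 and 2.35 FPKM, a log2 ratio of -1.53.

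Further falls of this kind included Slc25a40, Mccc2, Ube2q2 and Vma21. Slc25a40, a mitochondrial glutathione carrier, went from 7.59 to 2.20 FPKM, and Mccc2, of leucine breakdown, from 5.89 to 1.76 FPKM. Ube2q2, a ubiquitin-conjugating enzyme, went from 8.10 to 2.64 FPKM. In these 3 genes the NELL2 library was close to the control, with log2 ratios of -0.01, 0.11 and -0.02. Vma21, an assembly factor of the vacuolar proton pump, differed from them: it was at 19.2 FPKM in the control and at 5.90 and 5.20 FPKM in the NELL2 and knockdown libraries, so that the control library stood alone.

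Among rises chosen in the same way, several genes were close to the control in the NELL2 library. Acta1, skeletal muscle α-actin (chr8:123891769-123894751, minus strand), had 4.14, 2.83 and 22.3 FPKM in the control, NELL2 and knockdown libraries, a log2 ratio of 2.18. It was the only one of 10 skeletal muscle markers to reach 5 FPKM, and 3 of them were listed at 0 in every library. Nt5e, the ectoenzyme CD73 of stromal cells, rose from 2.17 to 10.1 FPKM and was at 2.47 FPKM with NELL2. Galnt7, an enzyme of O-linked glycosylation, rose from 3.26 to 10.5 FPKM and was at 3.31 FPKM with NELL2.

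The redox enzymes among these were Prdx6, Taldo1, Srxn1 and Prdx1. Taldo1, transaldolase of the pentose phosphate pathway (chr7:141392199-141402968, plus strand), was at 35.6, 33.8 and 118 FPKM in the control, NELL2 and knockdown libraries. Srxn1, the sulfiredoxin that reactivates peroxiredoxins, was at 38.7, 43.2 and 112 FPKM. Prdx1 rose from 328 to 854 FPKM, with 467 FPKM in the NELL2 library. Prdx6 rose from 32.2 to 112 FPKM and was already at 71.5 FPKM with NELL2. Taldo1 and Srxn1 were therefore near the control in the NELL2 library, while both peroxiredoxins lay between the other libraries.

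In another set of rises the NELL2 library was also far from the control. Lrrc8d, a subunit of volume-regulated anion channels, was at 8.50 FPKM in the control and at 31.8 and 30.5 FPKM in the NELL2 and knockdown libraries. Dcbld2, a transmembrane protein related to neuropilins, was at 6.98, 20.3 and 25.6 FPKM. Bola1, a mitochondrial protein of iron-sulfur cluster assembly, was at 1.59, 9.82 and 11.7 FPKM. Gm5577 was at 1.51, 4.26 and 6.54 FPKM, and is uncertain because it overlaps H1fx on the opposite strand, which was at 11.8 FPKM in the control and listed at 0 after knockdown. In each of these the control library was the lowest of the 3 and stood apart.

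Some large values rest on sequence that is shared between genes or has no known place. H2-Q6 and H2-Q7, class I genes with near-identical relatives, had log2 ratios of 2.02 and 1.62. The pseudogene Rpl22-ps1 went from 0.370 to 16.9 FPKM. AC147560.1, which has no position in the annotation used, was at 53.1 FPKM with NELL2 and 64.3 FPKM after knockdown and near 0 in the control. Among genes that overlap a neighbour on the same strand, Pcdhgb8, Gm20431, H1fx, Gm27640 and Gm28051 had the lowest ratios, from -5.13 to -2.83, and Pcdhgb1, Gm28036, Gm25894, Pcdhgb4 and Slc10a3 the highest, from 1.86 to 3.98. These values were treated as uncertain.

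**Figure D2:**
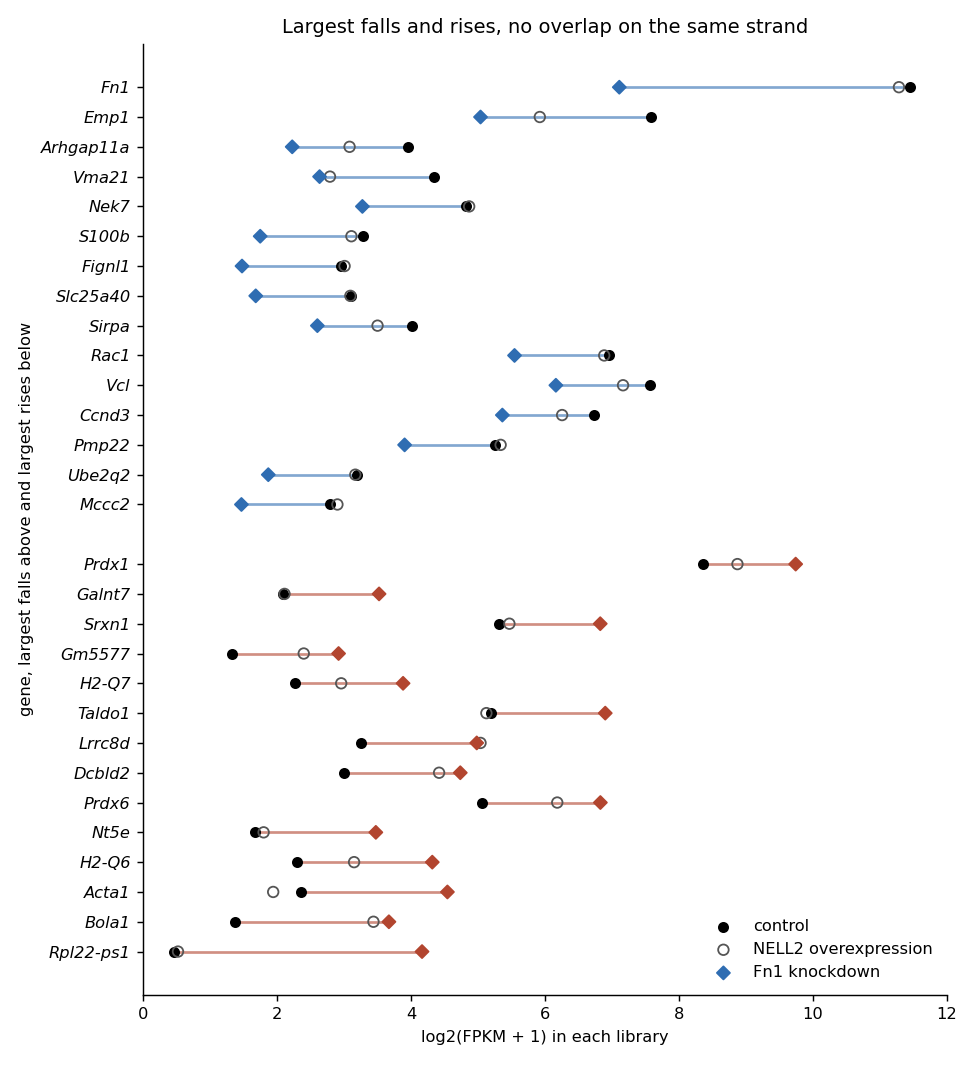
Each row is a gene, with log2(FPKM + 1) on the x axis in the control (black), NELL2 overexpression (open) and Fn1 knockdown (diamond, blue for falls and red for rises) libraries; only genes with an annotated position and no overlap with a gene on the same strand are shown (9 of the 29 overlap one on the opposite strand), the 15 largest falls among them above and the 14 largest rises below. Nek7, S100b, Rac1, Taldo1 and Nt5e have control and NELL2 points close together, while Vma21, Lrrc8d and Bola1 have NELL2 points close to the knockdown.

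Genes that bind or surround fibronectin were examined next, beginning with its receptors. None of the 8 receptor genes compared, of 14 listed, reached 2-fold, and 7 of 8 were above 0, beside 51.6% of all genes, with a median of 0.20 against 0.0087 over all genes. Itgb1, the β1 chain, was at 497, 527 and 624 FPKM in the control, NELL2 and knockdown libraries, a log2 ratio of 0.33. Itgav, the αv chain, was at 21.3, 21.9 and 33.5 FPKM, a ratio of 0.63 and the highest of the list. Itga5, which pairs with Itgb1 in the classical fibronectin receptor, had a ratio of 0.18, and Itgb5, a partner of αv, of 0.22. Of the syndecans, which bind the heparin-binding region, Sdc2, Sdc4 and Sdc3 had 0.25, 0.14 and 0.09, and Sdc1 alone was below 0, at -0.40. The sum over the list was 1117 FPKM in the control, 1176 FPKM with NELL2 and 1322 FPKM after knockdown. Of the 11 integrin chains not put in that list, 3 were compared, and Itga6 of the laminin receptor was the highest at 0.58. Itga6 passed the filter only through the knockdown library, at 4.78 FPKM in the control and 7.62 FPKM after knockdown. The median of these chains was 0.063 over the 3 compared and -0.029 with no filter.

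Other matrix genes moved both ways. Of 43 matrix glycoprotein and proteoglycan genes compared, of 50 listed without Fn1, 1 fell and none rose, beside 0.591% and 0.739% of all genes, and 22 were above and 21 below 0. Tgfbi, an RGD-containing matrix protein induced by TGF-β, fell from 38.1 to 16.0 FPKM and was at 42.0 FPKM with NELL2. Nov, of the CCN family, had 26.8, 21.3 and 13.4 FPKM, a log2 ratio of -0.95 that did not reach the limit. Thbs1, thrombospondin 1, had 2177, 2237 and 3302 FPKM, a ratio of 0.60, and Tnc, tenascin C, 278, 291 and 398 FPKM, a ratio of 0.52. The summed FPKM of the list was 8089, 8460 and 9705 in the control, NELL2 and knockdown libraries.

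Among the collagens 19 of 26 listed genes were compared, 1 rose, beside 0.739% of all genes, and 12 of 19 were below 0, beside 48.4% of all genes, with a median of -0.08. Col2a1, the collagen of cartilage (chr15:97975602-98004695, minus strand), rose from 300 to 602 FPKM with 287 FPKM in the NELL2 library, and so passed the limit narrowly. Col11a1, its partner in cartilage fibrils, had a ratio of 0.53. At the other end stood Col4a5 at -0.51 and Col8a2 at -0.50. Col1a1, the main collagen of bone, had 1494, 1601 and 1352 FPKM in the control, NELL2 and knockdown libraries.

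Enzymes that process or degrade matrix were within 2-fold throughout. Of 20 collagen-processing genes compared, Colgalt1, which adds galactose to collagen, was highest at 0.79 and Pcolce, the enhancer of procollagen cleavage, lowest at -0.51. Of 25 protease and inhibitor genes, 10 were above 0 and the median was -0.10. Plaur, the urokinase receptor, had 55.9, 52.3 and 100.5 FPKM in the control, NELL2 and knockdown libraries, a ratio of 0.84. Adam17 and Mmp19 were lowest, at -0.59 and -0.47.

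Focal adhesion genes had 3 falls and no rise among 50 compared of 53 listed, beside 0.591% and 0.739% of all genes, and a median of -0.04. Rac1, the GTPase of lamellipodia (chr5:143503634-143528036, minus strand), was at 123, 117 and 45.6 FPKM in the control, NELL2 and knockdown libraries. Vcl, vinculin, which links talin to actin (chr14:20929398-21033676, plus strand), was at 188, 142 and 70.5 FPKM, while Ap3m1, which it overlaps on the opposite strand, was at 19.9, 42.0 and 38.1 FPKM. Lims1, the adaptor PINCH1 that binds integrin-linked kinase, was at 55.7, 59.0 and 27.2 FPKM, a ratio of -1.01. At the other end Grb2, an adaptor of receptor kinases, had 0.90, and Ptk2, which encodes FAK, had 24.4, 25.2 and 27.9 FPKM. All 3 falls stood alone against a list whose quartiles were -0.17 and 0.08.

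The pathways that focal adhesions feed showed few single changes. Of 45 actin and contractile genes, a list that does not include Acta1, described above, none reached 2-fold, 22 were above and 23 below 0, and the extremes were Diaph3, a formin, at -0.69 and Actr2, of the Arp2/3 complex, at 0.65. Of 24 genes compared in a list of YAP and SRF targets that also holds these factors and their cofactors, 1 rose, Nt5e, beside 0.739% of all genes. Ctgf, a target of YAP, had 527, 496 and 733 FPKM, a ratio of 0.48. The 24 PI3K and AKT pathway genes compared had a median of 0.03, and of 0.23 without genes that overlap another on either strand. Among them Akt2 was at 45.6 FPKM after knockdown and 23.8 FPKM with NELL2, a ratio of 0.96 to the control, just short of the limit. Among 28 adhesion molecules 1 rose, beside 0.739% of all genes. Sema7a, a semaphorin anchored in the membrane that signals through β1 integrin, rose from 49.9 to 118 FPKM and was at 50.8 FPKM with NELL2.

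Of all lists compared, mitosis genes had the median farthest from 0. All 53 mitosis genes compared, of 57 listed, were below 0, with a median of -0.65 and quartiles of -0.78 and -0.52, against 48.4% of all genes below 0. In the NELL2 library the median of the same genes was -0.13. The falls were Prc1, which bundles the microtubules of the midzone, from 35.5 to 15.2 FPKM, and Plk1, the polo kinase, from 40.2 to 19.1 FPKM. Nusap1 of the spindle was at 9.98, 8.15 and 4.88 FPKM in the control, NELL2 and knockdown libraries, a ratio of -0.90. Ccnb2, cyclin B2, was at 23.7, 21.7 and 12.4 FPKM, a ratio of -0.88. Closest to 0 were Cdk1, the kinase that cyclin B activates, at -0.12, and Bub3 of the spindle checkpoint at -0.34. Thus 2 of 53 genes (against 0.591% of all genes) fell, and the set was marked by an even, smaller difference rather than by large ones.

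Replication genes had the same direction at a smaller size. Of 47 compared of 53 listed, 46 were below 0 and none reached 2-fold, and the median was -0.39 against -0.06 in the NELL2 library. Rpa2, which coats single-stranded DNA, had the lowest ratio at -0.62, followed by Pole, the leading-strand polymerase, at -0.60. Mcm5 of the replicative helicase was at 30.0, 27.7 and 19.7 FPKM. At the upper end stood Cdc6, a licensing factor, at -0.04 and Orc2, of the origin recognition complex, at 0.05.

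Regulators of G1 were not uniform. Of 20 compared, 3 fell (beside 0.591% of all genes), none rose, and 9 were above 0. The median was -0.15, but 0.052 with a filter of 10 FPKM and 0.037 without genes that overlap another on either strand, so its direction was not stable. Ccnd3, cyclin D3 (chr17:47505051-47599691, plus strand), had 105, 75.2 and 40.1 FPKM in the control, NELL2 and knockdown libraries. Ccnd1, cyclin D1 (chr7:144929931-144939925, minus strand), was at 262, 253 and 126 FPKM, and E2f3, a transcription factor of S phase entry, at 8.12, 8.22 and 3.49 FPKM. Among inhibitors Cdkn1c, p57, had a ratio of 0.98, Cdkn2d, of the INK4 group, of -0.84, and Cdkn1a, p21, of 0.09 at 372 FPKM in the control. p53 targets, of which Cdkn1a is one, had a median of 0.10 over 26 genes with no gene past 2-fold.

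The short sequence TTTGAA, the core of the cell cycle homology region found at many mitotic promoters, was searched on both strands of the RefSeq promoters (GRCm38.p6, from 250 bases before to 50 bases after the start). It was present in 32 of 43 mitosis genes with a promoter (74.4%), against 923 of 6722 of all genes compared (13.7%). Examples for the genes named are shown on the gene's own strand with the 6 bases in capitals. They are the 2 falls of the list and a cyclin gene described above.
Prc1 promoter, chr7:80294435-80294462, plus strand: ctctggctcggTTTGAAttccgcggggt
Plk1 promoter, chr7:122159454-122159481, plus strand: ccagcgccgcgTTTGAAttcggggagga
Ccnb2 promoter, chr9:70421534-70421561, minus strand: gcggcgcggtaTTTGAAtcgcggaccgg
The replication genes were searched for TTTNGCGC, a form of the E2F site, on both strands. It was present in 10 of 37 promoters (27.0%), against 210 of 6722 (3.12%). A match is a description of letters, and binding was not measured. These shares rest on which genes were listed and not on how they differed between the libraries, so they say nothing about the knockdown.

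Targets of NRF2, the transcription factor of the oxidative stress response, moved the other way. Of 35 compared of 38 listed, 6 rose (against 0.739% of all genes), none fell, and 31 were above 0. The median was 0.33 with quartiles of 0.13 and 0.73, and 0.08 in the NELL2 library. Besides Prdx6, Taldo1, Srxn1 and Prdx1, the rises were Gsta4, a glutathione transferase for lipid peroxides, from 9.17 to 21.7 FPKM, and Slc7a11, the cystine importer, from 2.27 to 6.24 FPKM. Nqo1, the quinone reductase often used as a readout of NRF2, had a ratio of 0.97 and Gclc, of glutathione synthesis, of 0.75. Lowest were Ephx1, an epoxide hydrolase, at -0.35 and Osgin1 at -0.22. Hmox1, heme oxygenase 1, had a ratio of 0.40. The letters TGACNNNGC, the core of the antioxidant response element, were present on either strand in 11 of 29 promoters of the list (37.9%), against 1157 of 6722 (17.2%). This share too rests on which genes were listed and not on how they differed between the libraries.

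In the overlapping list of peroxiredoxins, thioredoxins and other peroxide-removing enzymes, 3 of 19 rose, beside 0.739% of all genes, and the median was 0.22. Gpx1, a glutathione peroxidase, was next, with 18.8, 30.4 and 37.8 FPKM in the control, NELL2 and knockdown libraries and a ratio of 0.97. Sod3 and Gpx7 were lowest at -0.47 and -0.27.

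**Figure D3:**
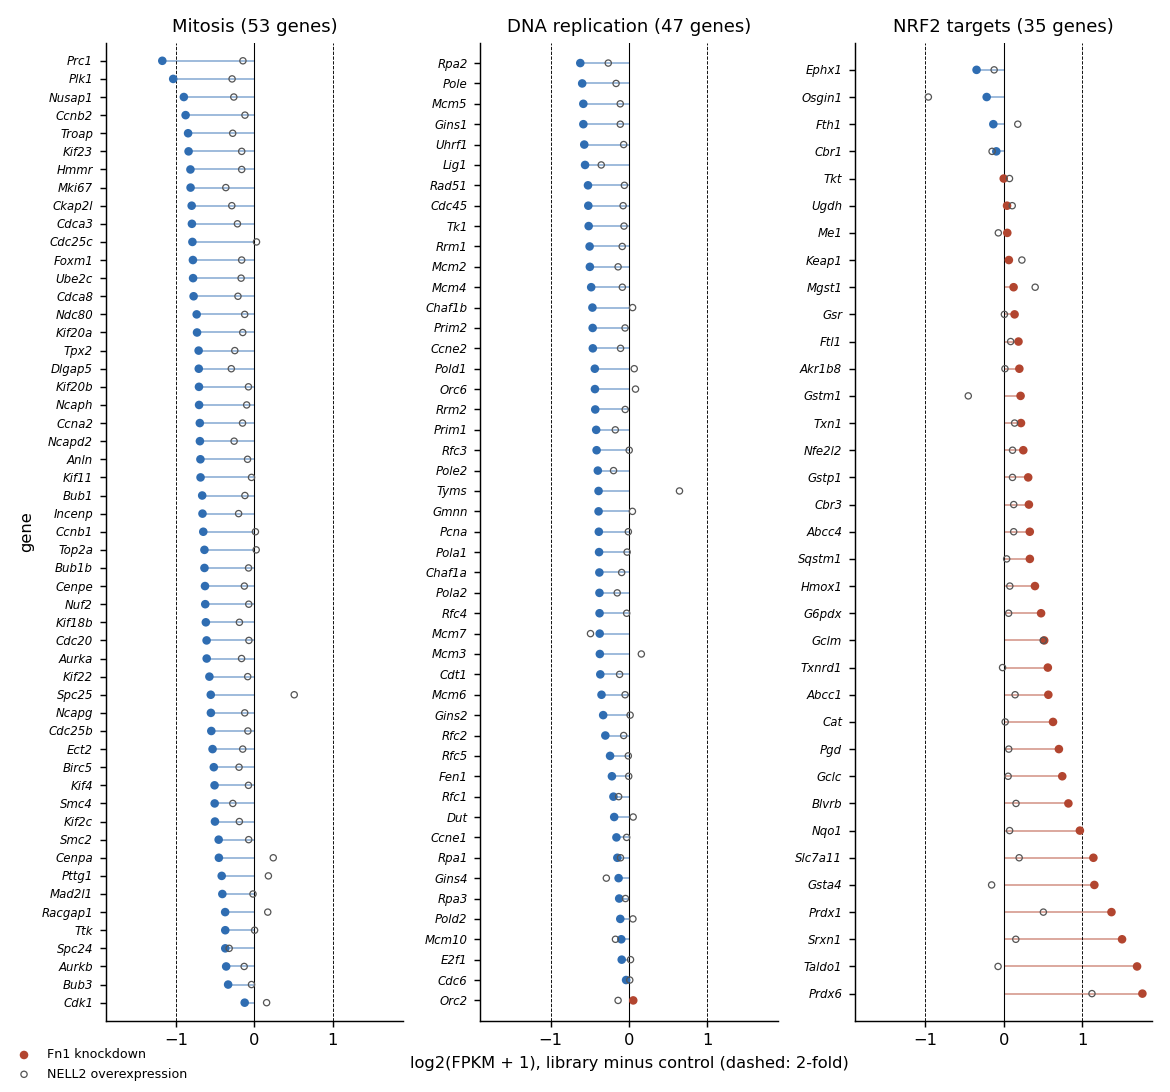
Each row is a gene of the mitosis, DNA replication or NRF2 target list that reached 5 FPKM, with log2(FPKM + 1) minus the control on the x axis for the Fn1 knockdown (filled, blue below and red above 0) and NELL2 overexpression (open) libraries; both use the same control library. All 53 mitosis genes and 46 of 47 replication genes lie left of 0 after knockdown, and 31 of 35 NRF2 targets lie right of it.

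Survival, differentiation and signaling lists were compared in the same way. In the BCL2 family and its relatives 2 of 15 rose and 1 fell, beside 0.739% and 0.591% of all genes. Bcl2l1, the survival protein BCL-XL, rose from 8.24 to 19.9 FPKM and was at 9.59 FPKM with NELL2, and Xiap, the caspase inhibitor, rose from 4.54 to 10.1 FPKM. Bcl2l2, which overlaps Gm20521, was at 15.4, 5.72 and 7.16 FPKM in the control, NELL2 and knockdown libraries. Osteoblast genes had no gene past 2-fold among 11 compared of 25 listed, with a median of -0.05. Runx2, the osteoblast transcription factor, was at 10.8, 11.3 and 10.4 FPKM, and Tnfrsf11b, osteoprotegerin, had a ratio of 0.59. Adipocyte genes had none past 2-fold among 14 of 31, with a median of 0.08 and Plin2, of the lipid droplet, highest at 0.31.

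Of 16 listed genes by which stromal cells support blood formation, 7 could be compared, and these were above 0 with none past 2-fold. Lepr, the leptin receptor, was highest with 7.71, 8.07 and 13.3 FPKM in the control, NELL2 and knockdown libraries, and the median was 0.39. With a filter of 1 FPKM the median was 0.23 and with no filter 0.15, and Il34, Il15, Tnfsf11 and Angpt1, all under 5 FPKM, had ratios of -0.36, -0.19, -0.18 and -0.01. Growth factor genes of the FGF, PDGF, IGF and VEGF families had a median of 0.15 over 29 genes, of 0.26 with a filter of 10 FPKM and of 0.069 without genes that overlap another on either strand. Fgf2, whose gene overlaps Gm43439, rose from 1.62 to 7.06 FPKM with 3.98 FPKM in the NELL2 library, and Igfbp3 and Fgfrl1 were at 0.84 and -0.80. TGF-β and BMP genes had a median of 0.14 over 34 genes, with Inhbb, an activin chain, highest at 0.78. The median was 0.072 without genes that overlap another on either strand, and 0.027 over the 23 of them whose 3′ UTR held neither of the 6-base sequences that are set out after the gene lists. Wnt genes had a median of 0.18 over 21, with Apc highest at 0.88. It was 0.057 with no filter and 0.077 over the 10 genes with neither of those sequences.

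Lists of general cell function differed in how far they lay from the background. Ribosomal protein genes had a median of -0.02 over 75 genes and nuclear genes of the respiratory chain of 0.01 over 42, with none past 2-fold. All 13 protein genes of the mitochondrial genome were below 0, with a median of -0.31 after knockdown and -0.23 in the NELL2 library, so that the control library was the highest of the 3. Against the mean of both control siRNA libraries the median was -0.18. Genes of endoplasmic reticulum folding were above 0 in 25 of 28 cases, beside 51.6% of all genes, with a median of 0.20, and Hspa5, the chaperone BiP, was highest at 148, 162 and 255 FPKM. Proteasome genes were above 0 in 26 of 31 cases, with a median of 0.11.

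**Figure D4:**
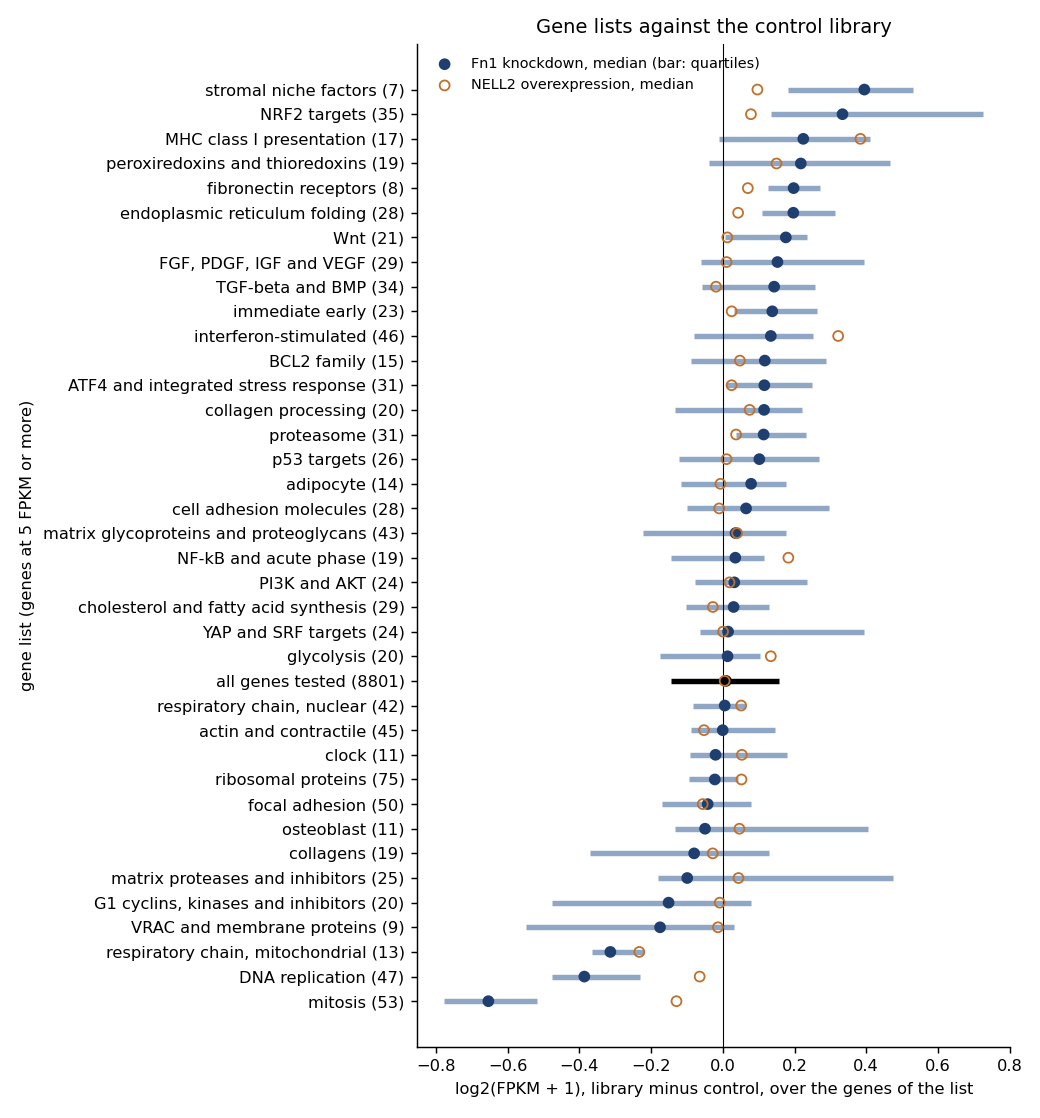
Filled points are the median log2(FPKM + 1) of each gene list in the Fn1 knockdown library minus the control, with quartiles as bars, and open points the median in the NELL2 overexpression library; the number of genes compared is in brackets. Mitosis (-0.65) and DNA replication (-0.39) lie lowest, stromal niche factors (0.39 over 7 genes, 0.15 with no filter) and NRF2 targets (0.33) highest, and all genes together lie at 0.0087.

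The control and NELL2 cells both received control siRNA and the knockdown cells did not, so genes were also described by short sequences in their annotated 3′ UTRs. A small RNA can lower mRNAs that pair with its seed, the bases near its 5′ end, and a sequence complementary to a seed marks such sites. The sequences of the siRNAs used are not given in the sources used here, and whether any octamer below belongs to one of them was not tested. The first octamer, AAGTATGA, was known from earlier work on these files, and the second, TCGGAGAA, was found by ranking all 7-base sequences by the median of the genes that hold them. Both were therefore chosen on these values, and what follows describes them without a test.

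Sites in Fn1 and in genes that fell are shown with the first octamer in capitals, 5′ to 3′ on the gene's strand, with GRCm38 positions from GENCODE M21. The site in Fn1 lies in its coding sequence and the others in 3′ UTRs.
Fn1, chr1:71599275-71599304, minus strand: gctacattatcAAGTATGAgaagcctggat
S100b, chr10:76260715-76260744, plus strand: tctcacaaactAAGTATGAacattctaact
Slc25a40, chr5:8454398-8454427, plus strand: aatgagattttAAGTATGAtgagaatgcag
Vcl, chr14:21033373-21033402, plus strand: caatgcctttaAAGTATGAatctatgccaa
Nek2, chr1:191832913-191832942, plus strand: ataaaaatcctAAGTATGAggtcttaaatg
Sites of the second octamer in 3′ UTRs of genes that rose are shown in the same way.
Taldo1, chr7:141402881-141402910, plus strand: ttttttagtgaTCGGAGAAgggatggatca
Galnt7, chr8:57524292-57524321, minus strand: agagaggaaacTCGGAGAAttggtaattat
Fyttd1, chr16:32905682-32905711, plus strand: tgaagagttcaTCGGAGAAgttcaagaaac

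A 3′ UTR was available for 8269 of the genes compared other than Fn1, of which 47 (0.568%) fell and 55 (0.665%) rose. The 209 genes with AAGTATGA (2.53%) had a median log2 ratio of -0.16, against 0.01 in the genes without it, and 148 of them (70.8%) were below 0. In the NELL2 library their median was 0.01. The octamer was present in 9 of the 47 genes that fell and in none of the 55 that rose. These 9 were S100b, Slc25a40, Vcl, Ube2q2, Zfp367, Tgoln1, Nfatc3, Nek2 and Snx6. In each the NELL2 value was nearer to the control than to the knockdown.

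The median differed by the length of the match for 8 and 7 bases, but hardly for the inner 6. Genes with 7 but not 8 bases had a median of -0.05 (975 genes), genes with the inner 6 only 0.02 (983 genes), and genes without these 6 bases 0.02 (6102 genes). With all 8 bases first, then in that order, the share of genes that fell was 4.31%, 1.33%, 0.814% and 0.279%. The share that rose was 0%, 0.821%, 0.712% and 0.656%. These shares take no account of 3′ UTR length. Of the 47 falls, 30 (63.8%) held at least the inner 6 bases AGTATG, against 26.2% of all scanned genes and 15 of the 55 rises. Emp1, Arhgap11a, Prc1, Ccnd1 and Mccc2 held 7 bases ending in the last base of the octamer, Tgfbi and Lims1 the other 7, and Rac1, Nek7 and Fignl1 the inner 6. Ccnd3, Plk1, Pmp22, Sirpa, Vma21 and E2f3 held none of these, and Xiap, which rose, held 7 bases. Of 15097 7-base sequences held by at least 100 genes, the 2 within this octamer had the lowest medians.

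The second octamer had the opposite sign. The 52 genes with TCGGAGAA (0.629%) had a median of 0.31, against 0.01 in the others and 0.02 for themselves in the NELL2 library, and 13 of them were below 0. It was in 4 of the 55 rises, Taldo1, Galnt7, Dffa and Fyttd1, and in none of the 47 falls. Dffa, an inhibitor of the apoptotic DNase, was at 4.74, 4.52 and 11.3 FPKM in the control, NELL2 and knockdown libraries. Fyttd1, an mRNA export factor, was at 7.31, 9.33 and 16.6 FPKM. Genes with 7 bases had a median of 0.09 (274 genes), with the inner 6 of 0.05 (418 genes) and with none of 0.00 (7525 genes). The 2 sequences of 7 bases within this octamer had the highest medians of the 15097, which is how it was found and adds nothing to it.

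**Figure D5:**
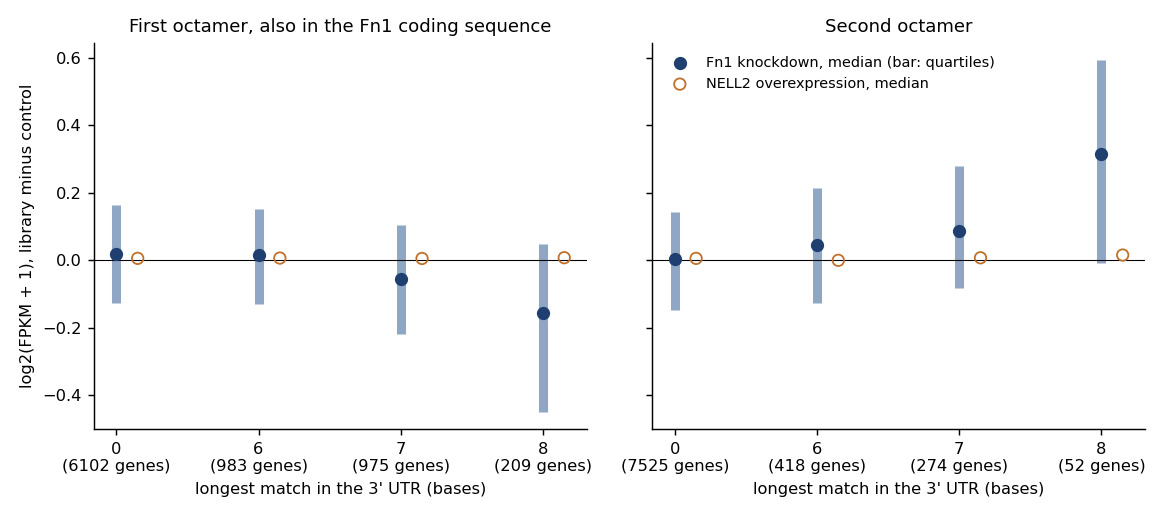
Points are the median log2(FPKM + 1) minus the control of genes grouped on the x axis by the longest match to each octamer in their 3′ UTR, in bases, for the Fn1 knockdown (filled, with quartiles) and NELL2 overexpression (open) libraries. With 0 to 8 matching bases the knockdown medians go from 0.02 to -0.16 for the first octamer and from 0.00 to 0.31 for the second, while the NELL2 medians stay near 0.

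The gene lists were set beside these sequences. The inner 6 bases of the first octamer were in 8 of 53 mitosis genes (15.1%), 9 of 47 replication genes (19.1%) and 4 of 35 NRF2 targets (11.4%), each a smaller share than the 26.2% of all scanned genes. Without genes that held the inner 6 bases of either octamer the median was -0.64 over 44 mitosis genes, -0.39 over 36 replication genes and 0.33 over 28 NRF2 targets. The medians of these 3 lists were thus nearly the same without those genes, while that of the G1 regulators went from -0.15 to -0.05 and that of the collagens from -0.08 to -0.15. Of the 5639 scanned genes that held neither, 32 rose (0.567%) and 13 fell (0.231%), beside 0.665% and 0.568% of all scanned genes. Of the 532 genes with no scanned 3′ UTR, Fn1 among them, 10 rose (1.88%) and 5 fell (0.94%), beside 0.739% and 0.591% of all genes compared.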

How the data were processed

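Processed FPKM values per gene were taken as deposited by the authors, from 3 poly(A)-selected libraries of ST2 cells sequenced as paired ends, 1 per group (control, NELL2 overexpression, Fn1 knockdown). Per the submitters' processing notes reads were mapped with HISAT2 to GRCm38 and normalized with DESeq. The versions, the program that gave FPKM, the annotation and the use of strand in counting are not given in the sources used here. FPKM depends on how reads were divided between overlapping or near-identical genes.

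Rows with repeated names (187) or names turned into dates (27) were left out, as were genes under 5 FPKM in both libraries. Of the date rows, 14 reached 5 FPKM and none differed by 2-fold. Differences were taken of log2(FPKM + 1), which understates the change of low genes. No test was run, since each group had 1 library. Depth was estimated from the smallest steps of FPKM in long single-transcript genes, and counting errors from it cover counting only. Names were matched to GENCODE M21 (GRCm38) for positions, overlaps and 3′ UTRs, and to RefSeq (GRCm38.p6) for older symbols and promoters. Python 3.11.15, numpy 2.4.6, pandas 2.3.3 and matplotlib 3.10.9 were used, and the scripts were tested on simulated data.

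Genes were named by rule: Fn1, the 15 largest rises and falls without an overlapping neighbour on the same strand, the 5 largest of each that overlap one, list members past 2-fold, all fibronectin receptors compared, and the list members farthest from 0. Other genes named as representatives of a list (among them Itga6, Col1a1, Col11a1, Ptk2, Ctgf, Akt2, Cdkn1a, Mcm5, Nqo1, Gclc, Hmox1, Runx2, Il34, Il15) and those named by octamer were picked with their values in view. The gene lists, the first octamer and the comparison itself were chosen with earlier results of these data known, so they support nothing independently. The lists shared some members, and some list members named by the rule are not reported here. Alternatives were other pseudocounts, filters, cutoffs, scalings and references, and leaving out overlapping genes.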

Additional observations from a re-analysis of the deposited data

How the results depend on the processing

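The count of 117 genes past 2-fold (65 higher, 52 lower) fell to 49 (28 and 21) with a pseudocount of 5, rose to 538 (261 and 277) with a cutoff of 0.58 log2 units and fell to 18 (9 and 9) with a cutoff of 2. Leaving out genes whose 3′ UTR held the inner 6 bases of either octamer, chosen after seeing the data, gave 60 of 6171 genes (42 and 18). These 6171 include the 532 genes with no scanned 3′ UTR, which hold 15 of the 60, or 2.82% of the 532 beside 1.33% of all genes compared. Leaving out genes that overlap another on either strand, also chosen later, gave 62 (38 and 24). Pseudocount 0.1 gave 158, filters of 1 and 10 FPKM gave 154 and 87, leaving out same-strand overlaps 94, and the mean of both libraries given control siRNA as reference 93.

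List medians moved by more than 0.1, or changed sign by as much, as follows. With a pseudocount of 5 the mitosis median was -0.50. A filter of 1 FPKM gave 0.23 for stromal niche factors and no filter 0.15, and 0.057 for Wnt genes. A filter of 10 FPKM turned the G1 regulators to 0.052 and gave 0.26 for the FGF to VEGF list. Without the genes holding either inner 6 bases the TGF-β and BMP median was 0.027. With the mean of both control siRNA libraries as reference the interferon-stimulated list turned from 0.13 to -0.076, MHC class I genes were at 0.038, NF-kB genes at -0.074, mitochondrially encoded genes at -0.18 and clock genes at 0.17. Without genes that overlap another on either strand the G1 regulators turned to 0.037, NRF2 targets were at 0.48, NF-kB genes at -0.074, PI3K and AKT genes at 0.23 and volume-regulated channel and membrane genes at -0.55. The cause was not tested. Both scaling factors were so close to 1 that scaling tested little.

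No paired analysis was possible because a single library stands for each condition, and no replicate exists to leave out. Depth limits the genes near 5 FPKM most, and the spread between cultures is not known.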

Other observations

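Inflammatory and antiviral genes were compared as further lists. Of 46 interferon-stimulated genes none reached 2-fold after Fn1 knockdown, 31 were above 0 and the median was 0.13, beside 0.32 in the NELL2 library. Against the mean of both control siRNA libraries the median turned to -0.076. Bst2, tetherin, had 500, 566 and 722 FPKM in the control, NELL2 and knockdown libraries, while Cxcl10, a chemokine for T cells, had 46.7, 102 and 36.4 FPKM. Isg20 had the lowest ratio of the list, -0.56, and Tap1, of peptide transport, the highest, 0.57. Of 19 NF-kB and acute phase genes 10 were above 0, with Ccl5 lowest at 119, 196 and 77.6 FPKM and Ptx3 highest at 105, 138 and 141 FPKM. Of 17 class I presentation genes, a list without H2-Q6 and H2-Q7, 1 rose, beside 0.739% of all genes, and the median was 0.22, or 0.038 against the mean of both control siRNA libraries. H2-Q4 rose from 54.1 to 139 FPKM, with 87.1 FPKM in the NELL2 library, and H2-K1 had a ratio of 0.81. Both have close relatives in the same cluster, so their levels are uncertain, and B2m, the shared light chain, had a ratio of -0.04.

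Amino acid and stress genes under ATF4 were above 0 in 25 of 31 cases, with a median of 0.12. Slc7a11 was the one rise, beside 0.739% of all genes, Psph, of serine synthesis, had 18.8, 19.1 and 32.1 FPKM in the control, NELL2 and knockdown libraries, and Ppp1r15a was lowest at -0.63. Immediate early genes had a median of 0.14 over 23, with Btg1 at 0.70 and Egr1 at -0.41. Cholesterol and fatty acid synthesis genes had a median of 0.03 over 29, from Sqle at -0.34 to Dhcr7 at 0.42. Glycolysis genes had a median of 0.01 over 20, with Ldhb at -0.56 and Slc2a1, the glucose transporter GLUT1, at 0.39. Clock genes had a median of -0.02 over 11, or 0.17 against the mean of both control siRNA libraries. Among them Noct had a ratio of -0.02 after knockdown but was at 15.2 FPKM in the control and 3.54 FPKM with NELL2. None of the members of the last 4 lists reached 2-fold after knockdown. Of the neural markers, S100b fell and Tubb3, a β-tubulin, had 6.06, 5.96 and 11.7 FPKM, a ratio of 0.85.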
